A study of Homo sapiens with 4 samples.

Results

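Mirtrons are microRNAs (miRNAs) whose hairpin is a short intron. The spliceosome cuts the intron out, the lariat is opened by debranching, and the freed intron folds into a hairpin that Dicer can cut, so the step of the Drosha and DGCR8 microprocessor, which frees canonical hairpins, is bypassed. One strand of the Dicer product is then kept by an Argonaute protein, as for other miRNAs. Because the ends of a mirtron hairpin are the splice sites, its 5p arm begins at the splice donor and its 3p arm ends at the splice acceptor. Of the genes considered, miR-1225 and miR-1228 have been described in earlier work as simtrons, which need Drosha but not splicing.

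Mirtron members were chosen by name alone: miR-877, miR-1224 to miR-1229 and miR-1236 to miR-1238, with every arm that had a row, such as hsa-miR-877-5p and hsa-miR-1226-3p (the prefix hsa-, for human, is left out below). These 10 hairpin names matched 9 of the 826 rows, from 7 hairpins, and the names miR-1225, miR-1228 and miR-1238 had no row. Both arms had rows for 2 hairpins, miR-877 and miR-1226. Of the 9 rows, 5 passed the filter on low counts and were tested, among 401 tested miRNAs in all: miR-877-5p, miR-877-3p, miR-1226-3p, miR-1227-3p and miR-1237-3p. The other 4, miR-1229-3p, miR-1236-3p, miR-1224-5p and miR-1226-5p, are given by their counts.

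The libraries came from the established human cell line H661, of large cell lung carcinoma origin, cultured in RPMI1640 with 10% fetal bovine serum. Cells were given either the solvent dimethyl sulfoxide (DMSO, 2 libraries) or 2.5 µM entinostat (2 libraries), which blocks class I histone deacetylases, and were treated for 8 h. Small RNA libraries from total RNA held 547875 to 938559 miRNA counts. No label says that replicates were separate cultures, so the spread behind each p may be technical only. The level of a miRNA is its CPM, the count per 1000000 counts, scaled between libraries with TMM factors (a trimmed mean of log ratios). A count of 0 allowed up to 3.20 to 5.48 CPM before that scaling. No added reference RNA entered the scaling here, so levels are relative to the other miRNAs, and a library of bulk cells cannot tell fewer cells with a miRNA from less of it per cell. Since the labels name no molecular identifiers, exact intervals and zero-count limits include only the error of counting.

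The 2 hairpins that carried most of the counts are shown first, because their ends show what defines the class. They are RefSeq sequences (GRCh38), printed 5′ to 3′ with the first and last 2 bases, the splice donor and acceptor bases of the intron, in capitals.
miR-877 hairpin: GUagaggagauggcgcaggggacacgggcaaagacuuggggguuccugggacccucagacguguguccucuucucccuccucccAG
miR-1226 hairpin: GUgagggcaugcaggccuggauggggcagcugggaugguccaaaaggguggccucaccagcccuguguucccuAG
The miR-877 hairpin (chr6:30584332-30584417, plus strand) is the whole of an 86-base intron of ABCF1, which encodes an ATP-binding cassette protein that acts in translation. The miR-1226 hairpin (chr3:47849555-47849629, plus strand) is the whole of a 75-base intron of DHX30, which encodes an RNA helicase. Both start and end on the exact bases of an intron in GENCODE release 29.

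The mature sequences of all 9 rows are shown for their ends and seeds, with the seed (bases 2 to 8) in capitals.
miR-877-5p: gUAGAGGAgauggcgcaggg
miR-1226-5p: gUGAGGGCaugcaggccuggaugggg
miR-1224-5p: gUGAGGACucgggaggugg
miR-877-3p: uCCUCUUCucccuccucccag
miR-1226-3p: uCACCAGCccuguguucccuag
miR-1227-3p: cGUGCCACccuuuuccccag
miR-1229-3p: cUCUCACCacugcccucccacag
miR-1236-3p: cCUCUUCCccuugucucuccag
miR-1237-3p: uCCUUCUGcuccgucccccag
All 3 of the 5p arms start with GU and all 6 of the 3p arms end with AG. The outer end of the mature miRNA fell on the last or first base of the annotated intron, at a distance of 0 bases, in 9 of 9 rows. These are the annotated ends; the count table does not show where reads ended. Among the other listed miRNAs with a RefSeq sequence, 7 of 265 5p arms (2.64%) started with GU and 82 of 334 3p arms (24.6%) ended with AG. The 9 rows had 9 different seeds, and 0 of the other listed miRNAs with a sequence shared one of them. The sequence table is not complete: it held 729 of the 826 listed names, with all 9 mirtron rows among them.

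Base composition followed the arm. Pyrimidines made up 68.2% (miR-1226-3p) to 90.5% (miR-877-3p) of the 3p arms, with a median of 78.0%, against a median of 59.1% over the other 334 listed 3p arms. An intron carries its pyrimidine-rich tract just before the acceptor, which is where these arms lie. The 5p arms were 53.8 to 57.9% G, against a median of 30.4% G over the other 265 listed 5p arms. The hairpins were GC-rich, with a median of 66.7% GC in the 7 with a row and 53.6% in 526 hairpins of other listed miRNAs. Ligation and PCR recover sequences unequally, so a level compared between arms of such different composition need not be their ratio in the cells.

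Each of the other 5 hairpins also filled an intron of a protein-coding gene exactly. They lie in PLEKHJ1 (miR-1227, chromosome 19, 2234062 to 2234149, minus strand), MGAT4B (miR-1229, chromosome 5, 179798278 to 179798346, minus strand) and NELFE (miR-1236, chromosome 6, 31956839 to 31956940, minus strand). The last 2 lie in RPS6KA4 (miR-1237, chromosome 11, 64368602 to 64368703, plus strand) and VWA5B2 (miR-1224, chromosome 3, 184241405 to 184241489, plus strand). MGAT4B encodes a glycosyltransferase of N-glycan branching, NELFE a subunit of the negative elongation factor, and RPS6KA4 a kinase that phosphorylates chromatin proteins. The 7 introns were 69 to 102 bases long. Of 526 hairpins of other listed miRNAs, 4 (0.76%) had both ends exactly on the ends of an intron of at most 200 bases, and 7 (1.33%) had both within 10 bases. The map of the arms within their introns shows that 5p rows lie against one splice site and 3p rows against the other.

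**Figure D1:**
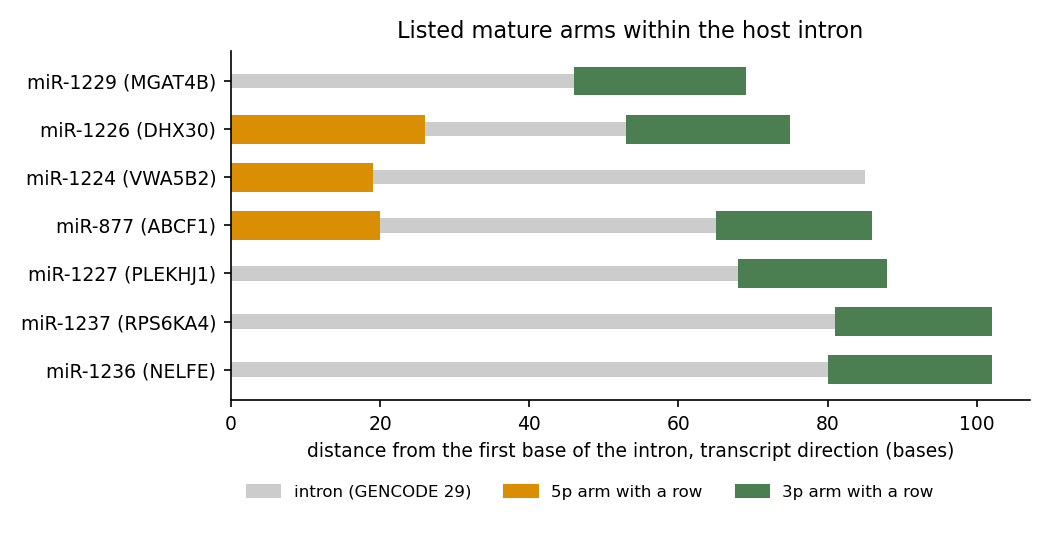
Position of each mature arm that had a row (coloured bars) within its host intron (grey bar), drawn to scale in bases from the first base of the intron in the transcript direction. All 5p arms begin at base 1 and all 3p arms end on the last base, in introns of 69 bases (miR-1229) to 102 bases (miR-1236, miR-1237).

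The 9 mirtron rows were a minor part of the miRNA counts in these H661 libraries, and most of their own counts came from 1 hairpin. The 9 rows together took 0.195% of the counts in DMSO replicate 1 (exact 95% interval 0.186 to 0.204%) and 0.173% in DMSO replicate 2 (0.162 to 0.184%). They took 0.16% in entinostat replicate 1 (0.149 to 0.171%) and 0.212% in entinostat replicate 2 (0.202 to 0.223%). The entinostat libraries were the lowest and the highest of the 4, so the treatments overlapped. The higher shares were those of the libraries with more counts, DMSO replicate 1 (938559) and entinostat replicate 2 (753104). DMSO replicate 2 held 561485 counts and entinostat replicate 1 held 547875. A link between the share and library depth was not tested. Of the counts of these 9 rows, miR-877-5p held 57.2%, miR-877-3p 24.8% and miR-1226-3p 13.6%.

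The levels had a clear order down to miR-1237-3p. The mature miRNAs are counted as whole molecules of 19 to 26 bases, so no length scaling enters. Levels over the 4 libraries ran from 916.6 to 1316 CPM for miR-877-5p, from 421.5 to 513.7 CPM for miR-877-3p and from 204.3 to 295.4 CPM for miR-1226-3p. They ran from 40.7 to 64.1 CPM for miR-1227-3p and from 11.0 to 23.5 CPM for miR-1237-3p. Neighbours among these 5 had ranges that did not overlap, with mean levels 2.29-fold, 1.84-fold, 4.74-fold and 2.97-fold apart. Below miR-1237-3p every neighbour overlapped the next: miR-1229-3p at 2.64 to 19.6 CPM, miR-1236-3p and miR-1224-5p each at 0 to 3.68 CPM, and miR-1226-5p at 0 to 2.64 CPM. By mean level miR-877-5p ranked 94 among the 826 rows, miR-877-3p 142, miR-1226-3p 176, miR-1227-3p 288 and miR-1237-3p 375.

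**Figure D2:**
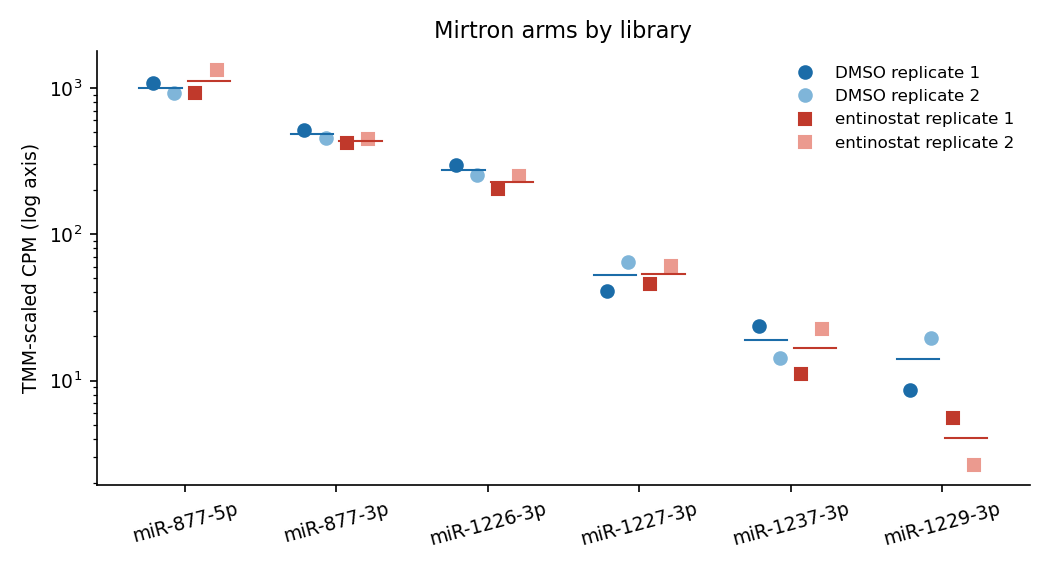
TMM-scaled CPM (log axis) of the 6 mirtron arms with a count in every library, with 1 point per library and a line at the mean of each treatment (n = 2). The order of the first 5 arms is the same in each library, and the treatments differ little beside the distance between arms, apart from miR-1229-3p at 2.64 to 19.6 CPM.

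Entinostat for 8 h gave no called change in any mirtron. In the quasi-likelihood test of edgeR, 0 of the 5 mirtron rows and 0 of all 401 tested miRNAs passed a Benjamini-Hochberg adjusted p of 0.05 (0%). The lowest adjusted p was 0.605 among the mirtrons and 0.316 over all. At an unadjusted p under 0.05 there were 0 of 5 mirtrons and 27 of 401 miRNAs (6.73%). DESeq2 and limma-voom called 0 as well. The unadjusted p was under 0.05 for 11 of 826 miRNAs in DESeq2, run without the low-count filter. In limma-voom it was under 0.05 for 31 of 401. Of the 5 rows, 2 had a log2 fold change above 0 and 3 below (median -0.16), and 193 of all 401 lay below 0 (48.1%, median 0.00466).

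The most abundant member, miR-877-5p, was at 1075.6 and 919.1 CPM under DMSO and at 916.6 and 1315.6 CPM under entinostat. The lowest and the highest library were both entinostat libraries. The DMSO mean was 997.4 ± 110.7 CPM and the entinostat mean 1116.1 ± 282.1 CPM (SD, n = 2). The fitted log2 fold change was 0.16 (95% interval -0.22 to 0.55, edgeR adjusted p = 0.788). The entinostat libraries held 498 and 998 counts of it, or 909 per 1000000 counts (exact 95% interval 831 to 992) and 1325 (1244 to 1410) before TMM scaling, so they differed by more than counting error. The sign therefore rested on 1 library: the log2 fold change was -0.13 without entinostat replicate 2 (edgeR adjusted p = 0.982) and 0.38 without entinostat replicate 1 (edgeR adjusted p = 0.132, unadjusted p = 0.00266). Leaving out a DMSO library gave 0.27 (replicate 1) and 0.03 (replicate 2), and with upper quartile factors the value was 0.29 (edgeR adjusted p = 0.451).

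The opposite arm, miR-877-3p, was at 513.7 and 457.8 CPM under DMSO and at 421.5 and 449.5 CPM under entinostat. Both entinostat libraries lay below both DMSO libraries. The nearest libraries of the treatments, at 457.8 and 449.5 CPM, rested on 257 and 341 counts with overlapping exact intervals. Means were 485.8 ± 39.6 and 435.5 ± 19.8 CPM (SD, n = 2), and the fitted log2 fold change was -0.16 (-0.44 to 0.11, edgeR adjusted p = 0.678). The value was -0.08 without DMSO replicate 1, -0.26 without DMSO replicate 2 and -0.04 with upper quartile factors.

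The DHX30 mirtron arm, miR-1226-3p, was at 295.4 and 252.9 CPM under DMSO and at 204.3 and 249.1 CPM under entinostat. Both entinostat libraries were again the lower, although the nearest libraries of the treatments, at 252.9 and 249.1 CPM, rested on 142 and 189 counts with overlapping exact intervals. Means were 274.2 ± 30.0 and 226.7 ± 31.7 CPM (SD, n = 2), and the fitted log2 fold change was -0.27 (-0.63 to 0.08, edgeR adjusted p = 0.605). This was the lowest p of the tested mirtrons. Leaving out 1 library moved the log2 fold change between -0.44 and -0.16, with no change of sign, and it was -0.15 with upper quartile factors. Non-overlapping groups were found in 2 of the 5 tested mirtrons, both lower with entinostat. Over all 401 tested miRNAs the share was 40.6% in either direction and 20.0% lower with entinostat, so this count is not a result about the mirtrons.

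The 2 rarer tested arms were too thinly counted to place. For miR-1227-3p the levels were 40.7 and 64.1 CPM under DMSO and 46.0 and 60.6 CPM under entinostat, from 25 to 46 counts a library. The treatments overlapped, and the log2 fold change was 0.10 (interval -0.60 to 0.80, edgeR adjusted p = 0.927), or -0.26 without DMSO replicate 1 and -0.14 without entinostat replicate 2. For miR-1237-3p the levels were 23.5 and 14.3 CPM under DMSO and 11.0 and 22.4 CPM under entinostat, from 6 to 22 counts a library. Its log2 fold change was -0.18 (interval -1.33 to 0.97, edgeR adjusted p = 0.927). It was 0.27 without DMSO replicate 1 and 0.17 without entinostat replicate 1, and -0.46 and -0.83 without the other replicate of each group. Changes inside these wide intervals were not detectable at this depth.

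**Figure D3:**
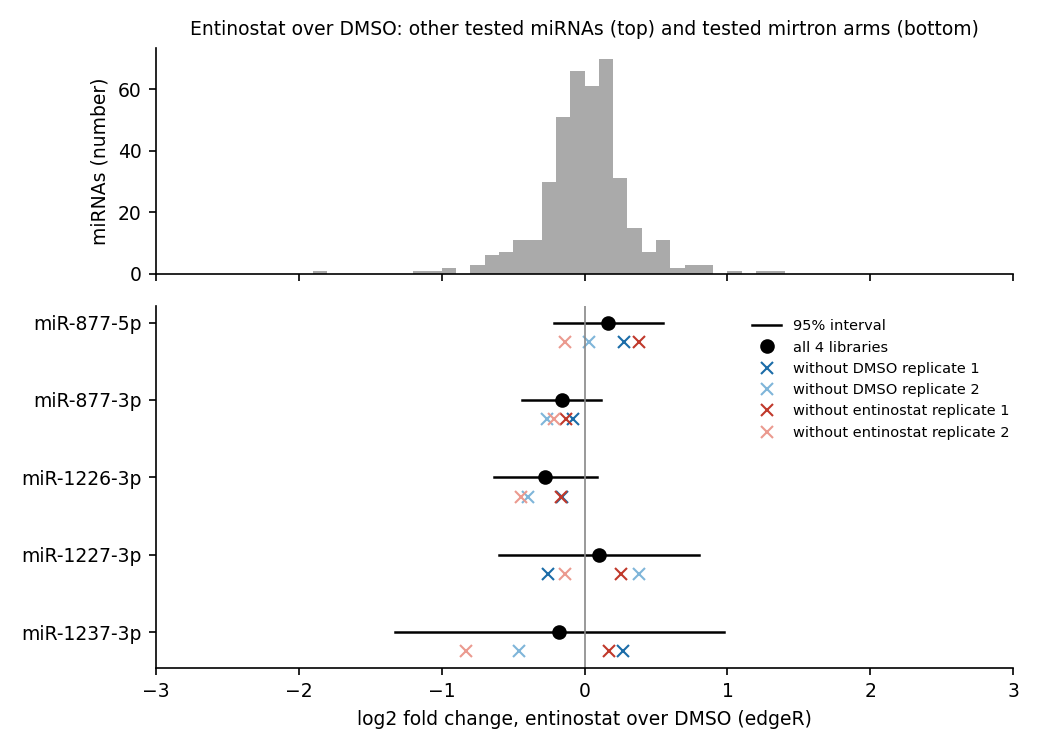
Top: number of the other 396 tested miRNAs by edgeR log2 fold change, entinostat over DMSO. Bottom: the 5 tested mirtron arms with all 4 libraries (circle, line for the 95% interval) and with each library left out (crosses); all 5 intervals include 0, and the crosses of miR-877-5p, miR-1227-3p and miR-1237-3p lie on both sides of it.

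Of the 4 untested rows, miR-1229-3p, from an intron of MGAT4B, was counted 8 and 11 times under DMSO and 3 and 2 times under entinostat. Its levels were 8.56 and 19.6 CPM against 5.52 and 2.64 CPM, so the treatments did not overlap. Over the 401 tested miRNAs, which do not include this row, the share was 40.6% in either direction and 20.0% lower with entinostat. Summed over the libraries of a treatment, 19 counts of 1500044 stood against 5 of 1300979, a ratio of 0.303 with an exact 95% interval of 0.0885 to 0.84 that covers counting error only. With each library left out in turn, the ratio was 0.196 without DMSO replicate 1, 0.451 without DMSO replicate 2, 0.21 without entinostat replicate 1 and 0.432 without entinostat replicate 2. The row did not pass the filter, and without a filter its adjusted p was 0.861 in the edgeR quasi-likelihood test. The 3p arm of miR-1236 was counted 0 and 2 times under DMSO and 2 and 2 times under entinostat. The 5p arm of miR-1224 had 2 and 0 against 2 and 0 counts, and that of miR-1226 had 2 and 0 against 0 and 2. These 3 rows lay at or below the 3 counts that a count of 0 allows in every library, so no fold is given.

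The 2 hairpins with both arms differed in arm use. For miR-1226 the 3p arm held 718 of 722 counts over the 4 libraries (99.4%). The 5p arm held 0.719% of the counts in DMSO replicate 1 and 1.05% in entinostat replicate 2. It had no count in the other libraries, which allows a share of up to 2.11% in DMSO replicate 2 and 2.7% in entinostat replicate 1. For miR-877 both arms were well counted, and the 5p arm held 3017 of 4324 counts (69.8%). Among the 91 hairpins with both arms tested, the more abundant arm held a median of 91.4%, and the 69.4% of miR-877, averaged over libraries, was the value of rank 12 from the lowest. The 5p arm was the more abundant in 40 of the 91.

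The 5p share of miR-877 was 67.7% in DMSO replicate 1 (exact 95% interval 65.2 to 70.1%) and 66.8% in DMSO replicate 2 (63.3 to 70.1%). With entinostat it was 68.5% in replicate 1 (65.0 to 71.9%) and 74.5% in replicate 2 (72.1 to 76.8%). Both entinostat libraries were higher, but replicate 1 lay within the counting error of the DMSO libraries. Means were 67.2 ± 0.653% and 71.5 ± 4.27% (SD, n = 2), a difference of 4.3 percentage points. The difference was 1.29 points without entinostat replicate 2 and 7.32 points without entinostat replicate 1. Non-overlapping shares were found in 32 of the 91 hairpins (35.2%), in 17 of them higher with entinostat (18.7%), and miR-877 ranked 13 by the size of its difference. No test was made of this share. It comes from the same counts as the log2 fold changes of miR-877-5p (0.16) and miR-877-3p (-0.16), so it is not a separate observation.

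**Figure D4:**
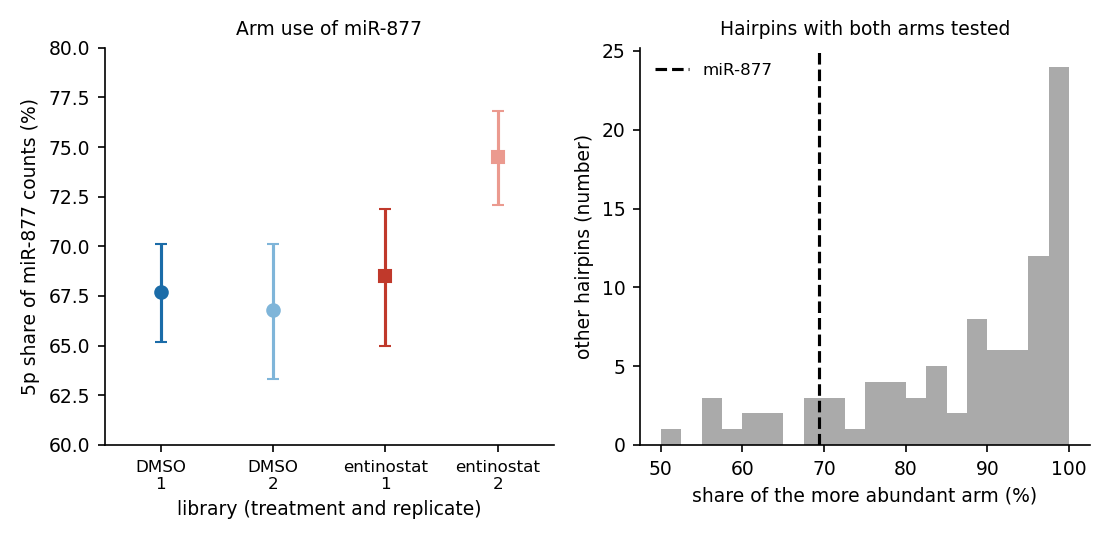
Left: share of miR-877 counts on the 5p arm in each library, with exact 95% intervals that cover counting error only (axis from 60 to 80%); entinostat replicate 2 is at 74.5% and the other 3 libraries are at 66.8 to 68.5%. Right: share of the more abundant arm, averaged over 4 libraries, in the other hairpins with both arms tested; the dashed line marks miR-877 at 69.4%.

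Other listed miRNAs were compared with the mirtrons in lists set by short-intron position, by number alone or by names of non-canonical origin. Only the 729 of 826 rows with a RefSeq sequence could be placed on introns. Outside the rule, 6 of these had a hairpin that fills a short intron within 10 bases at both ends, and 0 of the 6 had enough counts for a test. The most abundant were miR-6789-3p, from another intron of PLEKHJ1, at a mean of 10.4 CPM, and miR-4695-3p, from ALDH4A1, at 8.45 CPM. Together the 6 rows took 0.00214 to 0.0031% of a library, against 0.16 to 0.212% for the 9 mirtron rows. Among the 15 rows placed in this way, mirtron rows included, miR-877-5p, miR-877-3p and miR-1226-3p ranked 1, 2 and 3 by level.

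The high-numbered names miR-6726 to miR-6895 had 81 rows but 3 tested, with 1 above 0 and 2 below (median log2 fold change -0.14) and 0 called in either direction. The most abundant of them were miR-6747-3p at 27.2 CPM and miR-6777-3p at 19.8 CPM. These names were listed by number and not by origin. Some, such as miR-6789-3p, are also among the rows that fill a short intron. The list of non-canonical names miR-320, miR-484 and miR-451 had 5 rows, all tested: miR-484 and the miR-320 rows a to d. The hairpins of miR-320a and miR-484 are known to be made without Drosha. Of the 5 rows, 3 lay above 0 and 2 below (median 0.000713), and 0 were called. They took 0.872 to 0.941% of a library, a sum that may count a read more than 1 time, since the treatment of reads shared by near-identical miRNAs is not given in the sources used here. Such sharing would also enter the column totals: the count of miR-365a-3p equalled that of miR-365b-3p in all 4 libraries. No mirtron row with 100 or more counts had the same 4 counts as another row. The list was led by miR-320a at 6734 CPM (log2 fold change 0.00606, interval -0.18 to 0.20) and miR-484 at 1969 CPM (-0.19, interval -0.43 to 0.04).

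The tested non-members whose log2 level over the 4 libraries was most like that of a mirtron, each centred on its own mean, were found by the root mean square difference. For miR-877-5p they were miR-375 (0.0494), miR-1250-5p (0.0586) and miR-769-5p (0.0741). For miR-1226-3p they were miR-539-5p (0.0295), miR-5010-3p (0.0462) and miR-99b-5p (0.0511), and for miR-877-3p they were miR-192-5p (0.0223), miR-501-3p (0.0266) and miR-7974 (0.0342). For miR-1227-3p they were miR-431-5p (0.0945), miR-3065-3p (0.113) and miR-455-5p (0.113), and for miR-1237-3p they were miR-6511a-3p (0.0278), miR-365a-5p (0.123) and miR-2110 (0.133). Of the 396 other tested miRNAs, 65 lay within 0.1 of miR-877-3p, 15 of miR-877-5p and 14 of miR-1226-3p, but 1 each of miR-1227-3p and miR-1237-3p. Some of the closest were thinly counted: miR-375 had a mean of 18.1 CPM, miR-6511a-3p 26.9 CPM and miR-539-5p 27.1 CPM. The closest to miR-877-3p and miR-1227-3p had 201.8 and 244.3 CPM. At the low levels a small difference over 4 libraries may be counting error.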

How the data were processed

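Mature miRNAs were counted in 4 small RNA libraries. Per the labels' protocols, 1 µg of TRIzol-extracted RNA entered a small RNA kit of New England Biolabs. The submitters' processing notes name bcl2fastq 2.18. Aligner, counter, miRNA annotation and build were not given in the sources used here. The deposited count table holds whole numbers per miRNA name. The deposited CPM table equals the count over the column total, times 1000000, within 0.0001 in 100% of rows.

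Counts were scaled by TMM, filtered by filterByExpr (minimum count 10, minimum total 15) and tested for treatment over all kept rows with edgeR 4.0.16 (quasi-likelihood; R 4.3.3). Calls needed a Benjamini-Hochberg adjusted p under 0.05, two-sided. The test was checked on simulated counts. Shares have exact Clopper-Pearson 95% intervals. RefSeq hairpins (GRCh38) were placed on introns of GENCODE release 29. All mirtron rows, the 3 non-members most alike for each tested row of 10 CPM or more (prior count 2), and the 2 most abundant rows of each comparison list were named. Members and lists were chosen with earlier results of these data known. Alternatives were other scalings, filters and tools (DESeq2 1.42.0, limma 3.58.1), a replicate block and each library left out. SciPy 1.17.1 and matplotlib 3.10.9 were used.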

Additional observations from a re-analysis of the deposited data

How the results depend on the processing

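The count of 0 called miRNAs held under other scalings, filters, DESeq2 and limma-voom, but the edgeR likelihood ratio test called 4, and leaving out 1 library gave 0 to 5 (5 without entinostat replicate 1). No mirtron was called under any of 14 alternatives (lowest adjusted p 0.132). Of 70 recomputed log2 fold changes, 5 changed sign, all with 1 library left out, where an arm with 1 library is assumed to vary like the other group. The ranges were then -0.13 to 0.38 for miR-877-5p, -0.26 to 0.38 for miR-1227-3p and -0.83 to 0.27 for miR-1237-3p, and the cause was not tested. Upper quartile factors moved the median of all tested miRNAs from 0.00466 to 0.12 and the miRNAs at an unadjusted p under 0.05 from 12 higher and 15 lower to 38 and 6. The summed mirtron level had a log2 ratio of 0.00950, -0.20 to 0.18 with 1 library left out, and 0.13 with upper quartile factors. Leaving out each library, chosen after seeing the data for these values, gave differences in the 5p share of miR-877 of 1.29 to 7.32 points and ratios for miR-1229-3p of 0.196 to 0.451. Same-numbered libraries did not deviate together (correlation -0.12 over 401 miRNAs). With the replicate block 0 miRNAs were called and the log2 fold change of miR-877-5p was 0.14 and of miR-1226-3p -0.28. With crossed numbers, an alternative chosen after seeing the data, 0 were called. Depth limits miR-1227-3p, miR-1237-3p and the untested rows, with 145 counts or fewer each over 4 libraries.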
